A study of Mus musculus with 2 samples.

Results

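The transcripts of 9 genes of the sine oculis homeobox, Eya and Dach families were followed in inter-limb somites of the mouse embryo at E9.5 and E11.5. The members were chosen by gene symbol and not by a cut on a measured value, though earlier results of these data were known. They make up 9 of the 27998 genes counted. They are 3 sine oculis homeobox genes (Six2, Six4 and Six5), 4 Eya genes (Eya1 to Eya4) and 2 Dach genes (Dach1 and Dach2), and other genes of the first family were not analysed here. Somites lying between the limb buds were taken from C57BL/6 wild type embryos, 3 embryos of one age were pooled, and the dissociated cells were sequenced in 1 droplet library per stage. No transgene, mutation or treatment was involved, and both groups share strain and genotype.

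Sine oculis proteins are homeodomain transcription factors, Eya proteins are coactivators with a tyrosine phosphatase domain that the homeodomain proteins bring to DNA, and Dach proteins are corepressors related to Ski and Sno. The network is best known from the fly eye. In vertebrates its members act with Pax genes in somites and muscle precursors, in the nephrogenic mesoderm, and in placodes and sensory ganglia.

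Sine oculis proteins bind a muscle promoter element named MEF3, of which the sequence TCAGGTTTC is the best described form. This sequence was searched on both strands of the RefSeq promoter windows of GRCm38.p6, which run from 250 bases before to 50 bases after each start. It was found in 138 of 27025 genes (0.511%). Windows existed for 7 of the 9 members, and the sequence was found in 1 of them, that of Six4. The Six4 match and the match in the promoter of Myog, the myogenic factor used below to mark differentiating cells, are shown because they are places where a member could meet the promoter of a member or a target. They read 5′ to 3′ on the strand of the gene, with the match in capitals:
Myog, chr1:134289910-134289938, plus strand: agaggggggcTCAGGTTTCtgtggcgttg
Six4, chr12:73113326-73113354, minus strand: tggcctggggGAAACCTGAtcggccagat
The Myog match lies on the gene strand, 84 to 76 bases before the start and in no annotated feature of GENCODE M21. The Six4 match lies on the other strand, 99 to 91 bases before the RefSeq start, and it overlaps an exon and UTR of Six4 in GENCODE M21. A match is a run of letters and does not show binding.

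The 9 members lie on 9 different chromosomes of GRCm38. The sine oculis genes are at chr17:85684277-85688274 (Six2, minus strand), chr12:73099609-73113456 (Six4, minus strand) and chr7:19094594-19098549 (Six5, plus strand). The Eya genes are at chr1:14168954-14310235 (Eya1, minus strand), chr2:165595032-165771727 (Eya2, plus strand), chr4:132638987-132724765 (Eya3, plus strand) and chr10:23102963-23350786 (Eya4, minus strand). Dach1 is at chr14:97786853-98169765 (minus strand) and Dach2 at chrX:113297510-113836386 (plus strand). Six5 starts 772 bases after the end of Dmpk, the kinase gene of myotonic dystrophy, on the same strand, so reads that run past the end of Dmpk could be counted for Six5.

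After removal of barcodes with under 200 genes, with 6500 or more genes, or with at least 15% mitochondrial UMIs, the E9.5 library kept 9851 of 10121 barcodes and the E11.5 library 9595 of 10167. The median UMI count per cell was 12462 and 12479. A UMI is a random tag that counts each captured molecule once. Levels are given as UMIs of a gene per 1000000 UMIs of the cells in a class (UPM), with an exact 95% Poisson interval, and ratios as log2 ratios with an exact 95% interval of the ratio of 2 counts. Levels were not corrected for transcript length and compare cells, not genes. Since each stage is 1 library of pooled embryos, no test was possible, intervals cover counting error only, and stage and library cannot be told apart. There were 30 barcodes that occurred in both libraries, of which 28 and 27 were kept. Cells were placed in classes by marker genes that include no member. These gates left 53.1% of cells of the earlier library and 49.0% of the later unassigned.

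Eya4 and Six5 were higher and Dach1 and Eya1 lower at E11.5 than at E9.5 over all cells. Eya4, a coactivator also known from the inner ear, went from 0.544 UPM (0.429 to 0.681) to 4.02 UPM (3.69 to 4.38), a log2 ratio of 2.89 (2.54 to 3.25). Six5 went from 6.71 to 15.2 UPM, a log2 ratio of 1.18 (1.07 to 1.30). Dach1 went from 37.6 to 15.4 UPM, a log2 ratio of -1.29 (-1.36 to -1.21). These 3 of the 9 members passed 2-fold, where 30.0% of the 16764 genes with at least 20 UMIs did, so the share of members past 2-fold was near that of all genes. Past 2-fold, 4073 of all genes were higher and 951 lower, and 2 members were higher and 1 lower.

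The other 6 members differed by less than 2-fold over all cells. Eya1 went from 17.6 to 9.94 UPM (log2 ratio -0.82, -0.92 to -0.73) and Six4 from 24.9 to 19.7 UPM (-0.34, -0.41 to -0.26). Dach2 went from 3.57 to 5.23 UPM (0.55, 0.38 to 0.72), Eya2 from 4.67 to 6.52 UPM (0.48, 0.33 to 0.63) and Six2 from 2.06 to 2.62 UPM (0.35, 0.12 to 0.58). Eya3 was counted at 16.6 and 16.5 UPM, with an interval of the log2 ratio from -0.10 to 0.07. The median log2 ratio was 0.35 over the members and 0.25 over all genes.

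**Figure D1:**
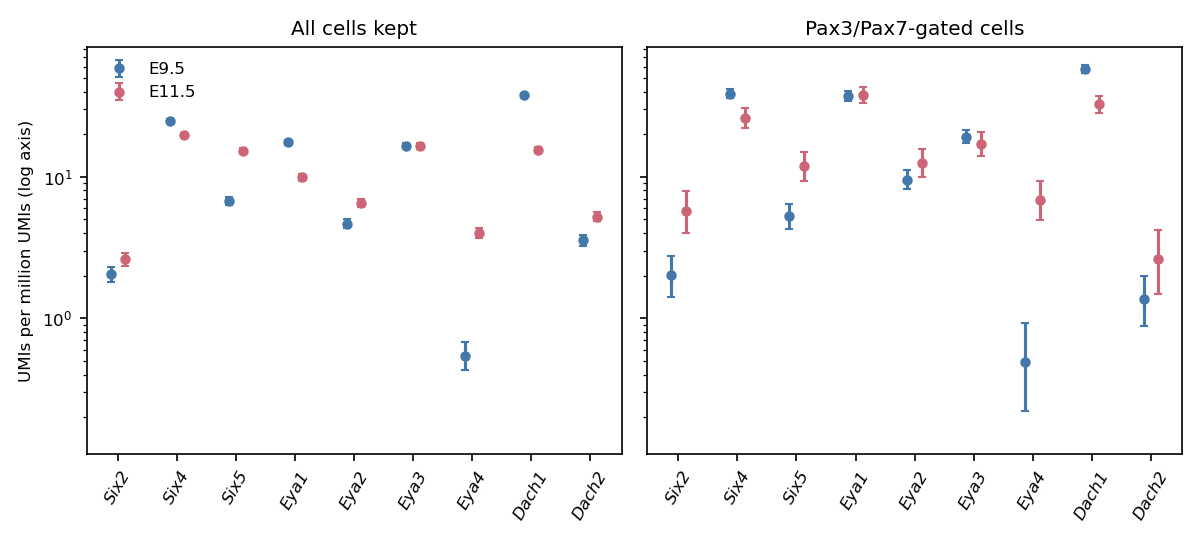
Level of the 9 members in UMIs per 1000000 UMIs (log axis) at E9.5 (blue) and E11.5 (red), over all cells kept and over Pax3/Pax7-gated cells, with bars for 95% Poisson intervals. Eya4 stands 7.39-fold higher at E11.5 over all cells, and Dach1 stands lower at E11.5 in both panels.

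A change over all cells mixes change within cells with a change in the tissues that make up the library, and in these sums fewer cells of a type and less RNA per cell cannot be told apart. The stages were therefore compared inside the Pax3/Pax7 gate, which holds cells with at least 2 UMIs of Pax3 and Pax7 together, no Myod1, little Myog or Acta1, and no UMI of the neural, glial and endothelial genes Sox2, Elavl3, Sox10 and Cdh5 and under 2 of the epithelial gene Epcam. Pax3 and Pax7 mark the dermomyotome and the muscle progenitors that leave it. There were 1021 such cells in the earlier and 358 in the later library, with a median of 15475 and 15962 UMIs. Its make-up differed between the stages beyond the members. Pax7 went from 6.73 to 81.0 UPM, Myf5 from 26.9 to 145 UPM, the mesenchymal gene Prrx1 from 30.2 to 154 UPM and the dermomyotome and dermal gene En1 from 0.326 to 90.1 UPM. Cells with a Prrx1 UMI were 280 of 1021 and 194 of 358.

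Within this gate, Eya4, Six2 and Six5 were higher at E11.5, Dach1 and Six4 were lower, and Eya1 was at the same level within its interval. Eya4 was counted with 9 UMIs at E9.5 (0.488 UPM, 0.223 to 0.927) and 42 UMIs at E11.5 (6.86 UPM, 4.94 to 9.27), a log2 ratio of 3.81 (2.75 to 5.04) that was 2.01 after thinning each cell to 5000 UMIs. Six2, known for keeping kidney progenitors undifferentiated, went from 2.01 UPM (1.41 to 2.77) to 5.71 UPM (3.98 to 7.95). Six5 went from 5.26 UPM (4.27 to 6.42) to 11.9 UPM (9.34 to 15.0). These 3 of the 9 members passed 2-fold, against 21.0% of 12053 genes. Of all genes, 1806 were past 2-fold higher and 729 lower.

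Dach1 was at 57.5 UPM (54.1 to 61.1) and 32.5 UPM (28.1 to 37.3), and Six4 at 38.7 UPM (35.9 to 41.6) and 26.1 UPM (22.2 to 30.5). Their log2 ratios were -0.82 (-1.05 to -0.60) and -0.57 (-0.82 to -0.32), and that of Six4 was -0.06 when the exclusion genes were left out of the gate. Eya1 was at 37.2 UPM (34.5 to 40.1) and 37.7 UPM (33.0 to 42.9), a log2 ratio of 0.02 (-0.20 to 0.24), although it was lower at E11.5 over all cells. Intervals of Eya2 (0.40, -0.01 to 0.79), Eya3 (-0.16, -0.49 to 0.16) and Dach2 (0.95, -0.06 to 1.91) held 0, and Eya2 was at 1.53 without the exclusion genes and Dach2 at 2.52 after thinning. Without the cells that held a Prrx1 UMI, the log2 ratio was 0.43 for Eya1, 0.94 for Eya2 and -0.46 for Dach1, each outside the interval of the whole gate.

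The share of cells in which a member was seen can differ from its level. Eya1 was seen in 41.7% of Pax3/Pax7-gated cells of the earlier library and 34.9% of the later, and in 18.9% and 15.3% after thinning, while its level was 37.2 and 37.7 UPM. In endothelial-gated cells, which should lack it and had a similar median depth of 14441 and 14968 UMIs, Eya1 was seen in 5.30% and 3.51%. Eya2 was seen in 14.4% and 15.9% of Pax3/Pax7-gated cells and in 0.379% and 0% of endothelial cells, and 0 of 57 cells allows a share of up to 5.26%. Both Eya genes therefore stood above the background in the progenitor gate at both stages. Eya4 in that gate at E9.5 was seen in 0.881% of cells, against 0.379% of endothelial cells, and could not be told from background.

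Progenitors with a Myf5 UMI carried more Eya2 than those without at both stages. Myf5 is the first myogenic factor of the somite. At E9.5 Eya2 was at 14.2 UPM in 293 cells with Myf5 and 7.15 UPM in 728 cells without (log2 ratio 0.99, 0.55 to 1.43). At E11.5 it was at 18.3 UPM in 183 cells and 5.74 UPM in 175 cells (1.67, 0.86 to 2.56). At E9.5 none of Six4, Eya1 and Dach1 differed by that split beyond counting error, with log2 ratios of 0.01, -0.09 and -0.08. At E11.5 Eya1 (0.55, 0.15 to 0.95), Eya4 (1.23, 0.20 to 2.37) and Dach1 (0.53, 0.10 to 0.96) were higher with Myf5 and Six5 lower (-0.86, -1.59 to -0.15).

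Lbx1 and Met are genes of migrating hypaxial precursors. Cells of the gate with Lbx1 at E9.5, or with Met at either stage, showed more Dach1 and Eya1. Lbx1 and Met, the receptor that lets muscle precursors leave for the limb, were used for this split, which was made after values of the members had been seen. At E9.5, 137 cells with Lbx1 held Dach1 at 83.0 UPM (72.3 to 94.9), Eya1 at 52.8 UPM (44.3 to 62.4) and Six4 at 50.4 UPM (42.1 to 59.9), against 53.4, 34.7 and 36.8 UPM in 884 cells without. Eya2 went the other way, with 3.88 UPM against 10.5 UPM (log2 ratio -1.43, -2.52 to -0.52). At E11.5 only 8 of 358 cells held an Lbx1 UMI, so cells with Met there were not shown to be hypaxial precursors. The 69 cells with Met at E11.5 held Dach1 at 67.9 UPM and Eya1 at 71.3 UPM, against 23.9 and 29.6 UPM in 289 cells without. Eya2 was also higher with Met at E11.5 (21.0 against 10.5 UPM, log2 ratio 0.99, 0.24 to 1.71), unlike with Lbx1, and its ratio at E9.5 was -0.25 (-1.09 to 0.50). Six4, higher with Lbx1, had ratios of 0.09 (-0.26 to 0.43) and 0.10 (-0.49 to 0.67) for Met at E9.5 and E11.5. The E11.5 log2 ratios of Dach1 and Eya1 were 1.51 (1.08 to 1.93) and 1.27 (0.87 to 1.66), and they were 0.32 (0.05 to 0.58) and 0.44 (0.11 to 0.75) for the split by Met at E9.5. Median depth at E11.5 was 16043 UMIs with Met and 15875 without.

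The muscle series at E11.5 was then read from the Pax3/Pax7 gate (358 cells) through cells with Myod1 but little Myog (217 cells) and cells with at least 3 Myog UMIs (374 cells) to cells with at least 10 Acta1 UMIs together with Myog or Myod1 (174 cells). Myod1 marks committed myoblasts, Myog early differentiation and Acta1, the skeletal actin gene, contractile myocytes. Myh3, an embryonic myosin outside the gates, was counted at 0.816, 0.750, 163 and 2447 UPM in that order, and Mki67, a gene of cycling cells, at 223, 155, 138 and 37.3 UPM. The Myog gate also held the red cell globin Hbb-y at 1591 UPM, against 34.0 to 39.0 UPM in the other muscle gates, and the part of this in the levels below was not tested.

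The 4 Eya genes followed 4 different courses along this series. Eya1 was counted at 37.7, 26.5, 11.0 and 5.37 UPM, lower at each step, with a log2 ratio of -2.81 (-3.62 to -2.10) between the Acta1 and the Pax3/Pax7 gates. Its level in the Acta1 gate (3.13 to 8.59) did not stand above that of endothelial cells of the library (4.03 UPM, 1.10 to 10.3). That endothelial level rests on 4 UMIs in 57 cells. Red blood cells of the library held 0 Eya1 UMIs, which allows up to 1.34 UPM, and the Acta1 gate stood above that. Eya2 was counted at 12.6, 21.0, 36.3 and 8.84 UPM, so it peaked in the Myog gate, with a log2 ratio of 1.53 (1.16 to 1.92) over the Pax3/Pax7 gate and of -2.04 (-2.66 to -1.47) from the Myog to the Acta1 gate. Eya4 was counted at 6.86, 6.75, 11.0 and 20.5 UPM. It was the Eya gene that was higher in the Acta1 gate than in progenitors (log2 ratio 1.58, 1.00 to 2.18), and it was also higher than in the Myog gate (0.90, 0.40 to 1.39). Eya3 was counted at 17.1, 17.2, 21.7 and 14.5 UPM and stayed within 2-fold throughout.

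From the Pax3/Pax7 to the Myog gate Eya1 was lower and Eya2 higher at each step. The step to the Myod1 gate depended on the setting. Both ratios all but vanished without the exclusion genes. Without Prrx1-holding cells that of Eya2 shrank and that of Eya1 grew. In the Acta1 gate Eya2 did not differ from the Pax3/Pax7 gate beyond counting error (-0.51, -1.19 to 0.13). Inside the Myog gate Eya1 was lower with more Myog. In 99 cells with 3 to 9 Myog UMIs Eya1 was at 20.4 UPM (14.3 to 28.2), in 89 cells with 10 to 29 at 13.1 UPM (8.18 to 19.8) and in 186 cells with at least 30 at 5.51 UPM (3.37 to 8.51). Eya2 stayed at 32.8, 41.5 and 35.5 UPM over the same bins. Its drop fell between the 2 gates, since the 79 Acta1-gated cells with 10 to 49 Acta1 UMIs already held it at 7.63 UPM (3.29 to 15.0). Eya4 was at 18.1, 24.0 and 18.9 UPM over the 3 bins of the Acta1 gate, and Eya1 at 2.86, 6.01 and 7.34 UPM with overlapping intervals.

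The shares of cells followed these levels. Eya2 was seen in 15.9%, 25.3%, 42.2% and 10.9% of cells along the series, and Eya1 in 34.9%, 29.0%, 15.0% and 6.90%. Eya4 was seen in 10.3%, 10.1%, 17.4% and 28.2% of cells, against 0 of 57 endothelial and 0 of 125 red blood cells, which allow up to 5.26% and 2.40%. After thinning, Eya1 and Eya2 were seen together in 7 of 356 Myog-gated cells, Eya2 alone in 49, Eya1 alone in 11 and neither in 289. The number expected together if the 2 were unrelated was not computed, so these counts do not show that they exclude each other. At this depth a cell that holds both may show only 1 of them.

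Among the sine oculis genes, Six4 was lowest in the Acta1 gate, and Six2 was highest in the Myod1 gate. Six4, which acts with its relatives in myogenesis, was counted at 26.1, 30.0, 33.9 and 14.5 UPM, with a log2 ratio of 0.38 (0.08 to 0.67) for Myog over Pax3/Pax7 and of -1.22 (-1.71 to -0.76) for Acta1 over Myog. Six2 was counted at 5.71, 10.5, 3.25 and 0.947 UPM, from 35, 42, 23 and 3 UMIs. Its log2 ratio was 0.88 (0.20 to 1.57) for Myod1 over Pax3/Pax7 and -1.69 (-2.49 to -0.93) for Myog over Myod1, but the first was -0.88 after thinning, so its direction is not settled by these counts. Six5 was counted at 11.9, 9.25, 5.93 and 5.37 UPM, and was lower in the Acta1 than in the Pax3/Pax7 gate (-1.15, -2.01 to -0.37). Dmpk, its upstream neighbour, moved the other way, from 4.08 to 46.7 UPM. The part of Dmpk reads in the Six5 counts was not tested, along this series or between the stages.

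Dach1 was lower in the Myod1 and Myog gates than in the Pax3/Pax7 gate. It was counted at 32.5, 17.0, 13.4 and 24.3 UPM. Its log2 ratio was -0.94 (-1.35 to -0.53) for Myod1 over Pax3/Pax7 and -1.28 (-1.64 to -0.92) for Myog over Pax3/Pax7, and the Myog and Myod1 gates did not differ beyond counting error (-0.34, -0.81 to 0.13). It was higher in the Acta1 than in the Myog gate (0.86, 0.40 to 1.31). In endothelial cells of the same library Dach1 was at 15.1 UPM (8.45 to 24.9), so its level in the Myog gate did not stand above theirs. Endothelium is not a floor for Dach1, though. Red blood cells of that library held it at 0.894 UPM (0.108 to 3.23) and neural crest and glia at 1.92 UPM (0.706 to 4.19). The Myog gate stood above both. Dach2 was counted with only 16, 7, 5 and 8 UMIs, at 2.61, 1.75, 0.706 and 2.53 UPM, and its course rests on these few molecules.

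Between the Myog and the Pax3/Pax7 gates, 1 of the 9 members was past 2-fold higher (Eya2) and 4 lower (Eya1, Dach1, Dach2 and Six5), where 14.3% of 11531 genes were past 2-fold either way (639 higher and 1005 lower). Between the Acta1 and the Pax3/Pax7 gates 1 was higher (Eya4) and 3 lower (Eya1, Six2 and Six5), where 35.1% of 11243 genes were past 2-fold (1391 higher and 2558 lower). Without Prrx1-holding cells in the Pax3/Pax7 gate, the log2 ratio of Eya4 for Acta1 over Pax3/Pax7 was 0.93, which is under 2-fold. The ratio of Eya2 for Myog over Pax3/Pax7 was 1.05 without them, and 0.93 when the exclusion genes were left out. Between the Myod1 and the Pax3/Pax7 gates 0 members passed 2-fold, and 0 to 3 did over the alternatives tried.

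**Figure D2:**
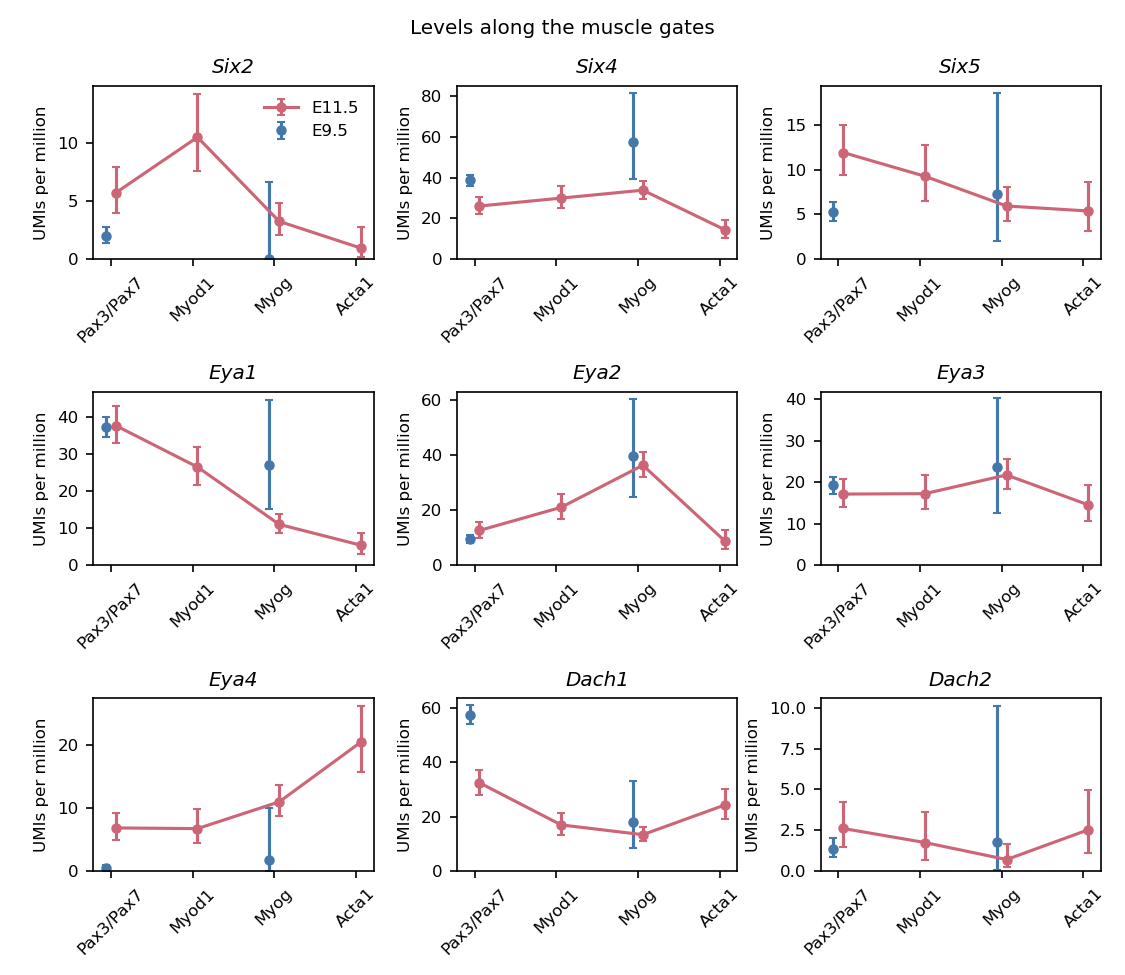
Level of each member in UMIs per 1000000 (linear axis from 0) along the Pax3/Pax7, Myod1, Myog and Acta1 gates at E11.5 (red, joined) and in the Pax3/Pax7 and Myog gates at E9.5 (blue), with bars for 95% Poisson intervals. Eya1 goes from 37.7 to 5.37, Eya2 peaks at 36.3 in the Myog gate and Eya4 is highest, at 20.5, in the Acta1 gate.

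At E9.5 differentiation had barely begun, with 0 cells in the Myod1 gate, 27 in the Myog gate and 4 in the Acta1 gate. The 27 Myog-gated cells held Eya2 at 39.7 UPM (24.9 to 60.2), Six4 at 57.8 UPM (39.5 to 81.6) and Dach1 at 18.1 UPM (8.66 to 33.2). Over the Pax3/Pax7 gate of the same library Eya2 was higher (log2 ratio 2.06, 1.35 to 2.70) and Dach1 lower (-1.67, -2.74 to -0.79), and the interval of Eya1 held 0 (-0.46, -1.30 to 0.27). In newly formed somites, 52 cells with Ripply2, Mesp2 or Cer1, the levels were 42.0 UPM for Dach1, 34.0 UPM for Six4, 34.0 UPM for Eya1 and 2.27 UPM for Eya2. Eya2 was thus counted lower there than in the Pax3/Pax7 gate (log2 ratio of the latter over the former 2.07, 0.20 to 5.13), while the intervals for the other 3 held 0. The Eya2 level in newly formed somites rests on only 2 UMIs. Hbb-y was at 2005 UPM in the newly formed somite gate and 134 UPM in the Pax3/Pax7 gate, and its part was not tested.

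Outside muscle, Eya1, Eya2 and Six4 were split between kinds of neurons at E11.5. The neuron gate at E11.5 was split into 71 cells with both Isl1 and Pou4f1, a pair typical of sensory neurons, and 256 others. The name sensory rests on these 2 genes. Eya2 was counted at 93.6 UPM (78.2 to 111) in the sensory and 10.6 UPM (7.01 to 15.5) in the other neurons, a log2 ratio of 3.14 (2.53 to 3.79). Six4 was counted at 50.4 UPM (39.3 to 63.7) and 5.52 UPM (3.02 to 9.26), a log2 ratio of 3.19 (2.35 to 4.13). Eya1 went the other way, with 4 UMIs (2.88 UPM, 0.784 to 7.37) against 122 UMIs (48.1 UPM, 39.9 to 57.4), a log2 ratio of -4.06 (-5.96 to -2.67). The 122 UMIs came from 38 of the 256 other neurons (14.8%), and 12.4% showed Eya1 after thinning. The level is thus that of a part of these cells, and the interval does not cover such clustering. Of the 6 members with at least 20 UMIs over both groups, 2 were past 2-fold higher in sensory neurons and 1 lower, where 17.6% of 10387 genes were past 2-fold (502 higher and 1327 lower).

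Eya2 and Six4 were each seen in 57.7% of the sensory cells, against 0% and 7.02% of endothelial cells. The sensory cells were deeper, with a median of 20675 UMIs against 9140, but after thinning Eya2 was still seen in 35.3% against 4.98% and Six4 in 25.0% against 2.99%. Both were seen together in 9 of 68 thinned sensory cells, Eya2 alone in 15, Six4 alone in 8 and neither in 36, and the number expected together was not computed. Dach1 was at 129 UPM (111 to 149) in sensory and 78.4 UPM (67.9 to 90.1) in other neurons, both above its level in every muscle gate of the library. At E9.5 only 7 of 89 neuron-gated cells were sensory by the 2 genes, too few to show such a split. The 82 others of E9.5 held Eya2 at 31.8 UPM (19.7 to 48.5), Eya1 at 25.7 UPM (15.0 to 41.2) and Six4 at 15.1 UPM (7.25 to 27.8).

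**Figure D3:**
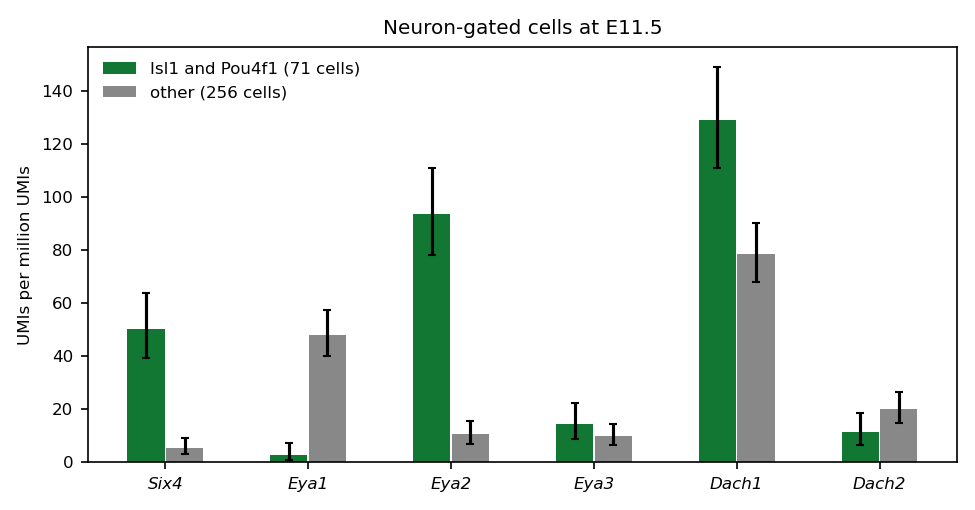
Bars give the level of 6 members in UMIs per 1000000 UMIs in neuron-gated cells at E11.5, split into 71 cells with Isl1 and Pou4f1 (green) and 256 others (grey), with 95% Poisson intervals. Eya2 and Six4 are higher in the first set, at 93.6 and 50.4, and Eya1 in the second, at 48.1.

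Six2 and Eya1 were both counted in the intermediate mesoderm gate of E9.5. They are partners in the nephrogenic mesoderm, where they are known to act upstream of Gdnf. The gate held 169 cells with Pax2 at 111 UPM and Pax8 at 149 UPM. Six2 was at 8.12 UPM (4.96 to 12.5) and Eya1 at 27.6 UPM (21.4 to 35.0). Six2 was seen in 14 of the 169 cells, and its detection in the same cells as Eya1 was not computed. Epithelial cells of E9.5 held both as well, Six2 at 13.7 UPM and Eya1 at 23.5 UPM. In the 24 cells with a Gdnf UMI, a split made after values were seen, Six2 was at 23.4 UPM (10.7 to 44.5) and Eya1 at 46.8 UPM (27.8 to 74.0), against 5.29 and 24.1 UPM in the other 145. Their log2 ratios were 2.15 (0.70 to 3.55) and 0.96 (0.10 to 1.76), and the Six2 value in Gdnf-holding cells rests on 9 UMIs. Eya3 was higher in the same cells too, at 33.8 against 15.9 UPM (1.09, 0.04 to 2.05), so the difference was not particular to Six2 and Eya1. At E11.5 the same gate took 101 cells by Osr1, Wt1 and Emx2 with Pax2 at only 2.22 UPM, so the label did not hold there. Those Osr1, Wt1 and Emx2 cells held Six2 at 2.77 UPM, Eya1 at 4.44 UPM and Dach2 at 11.7 UPM (7.21 to 17.8).

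Dach2 was highest in epithelial cells of E11.5. The gate held 80 cells with Epcam at 586 UPM, of which 66 had a UMI of Trp63, the factor of surface ectoderm and stratified epithelium. Dach2 was counted with 58 UMIs in 24 of the 80 cells, at 48.8 UPM (37.0 to 63.1). At E9.5 the epithelial gate held 119 cells and 1 Dach2 UMI (0.547 UPM, 0.0139 to 3.05), a log2 ratio of 6.48 (3.94 to 11.81). The gates differed in make-up, since 54 of the 119 cells had Trp63 at E9.5, but between Trp63-holding cells alone Dach2 was at 1.13 and 49.1 UPM (5.44, 2.89 to 10.77).

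Six2 moved the other way in that gate, from 25 UMIs (13.7 UPM, 8.85 to 20.2) to 2 UMIs (1.68 UPM, 0.204 to 6.08). Of the 25 UMIs, 20 were in cells without Trp63. Between Trp63-holding cells alone Six2 had 5 and 1 UMIs (log2 ratio -2.47, -8.03 to 0.69), so a change within those cells was not shown. At E9.5 Six2 and Eya1 were higher in the 65 epithelial cells without Trp63, at 21.2 and 40.2 UPM, than in the 54 with it, at 5.66 and 5.66 UPM. Eya2 had 0 UMIs in the former, which allows up to 3.18 UPM, and 10 UMIs (11.3 UPM, 5.43 to 20.8) in the latter. Six2 and Eya1 thus went with one set of epithelial cells of the earlier library and Eya2 with the other.

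In the mesenchyme of E11.5, Eya2 was low. Endothelial cells of that library held 0 Eya2 UMIs, which allows up to 3.02 UPM. Six5 was not particular to mesenchyme, at 15.2 UPM (14.6 to 15.9) over all cells and 23.5 UPM (15.6 to 34.0) in epithelial cells. Cells gated by Scx, a tendon precursor gene, numbered 1811 and also held the cartilage factor Sox9 at 282 UPM. They had Six5 at 18.1 UPM (16.5 to 19.8), Six4 at 18.8 UPM (17.1 to 20.5) and Eya2 at 0.867 UPM (0.544 to 1.31). Sclerotome-gated cells (581), the precursors of vertebrae and ribs, had Six5 at 20.8 UPM (17.6 to 24.3), Six4 at 23.4 UPM and Eya2 at 2.60 UPM (1.56 to 4.05). Eya2 was higher in the sclerotome than in the Scx gate (log2 ratio 1.58, 0.62 to 2.53). Against the Scx gate, Pax3/Pax7-gated cells had more Eya2 (log2 ratio 3.86, 3.16 to 4.61), Dach1 (2.31, 2.01 to 2.62) and Eya1 (2.11, 1.84 to 2.39) and less Six5 (-0.60, -0.98 to -0.24).

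Levels were low in blood. Red blood cells, whose UMIs are mostly globin, held Six4 at 1.73 and 1.79 UPM at the 2 stages, Eya1 at 0.576 and 0 UPM and Dach1 at 2.31 and 0.894 UPM. In 74 white blood cells of E11.5, Six4 had 0 UMIs, which allows up to 3.26 UPM, and Eya3 alone had more than 2 UMIs of a member (10 UMIs, 10.9 UPM). Over the gates of at least 50 cells Eya3 was counted at 2.68 UPM (6 UMIs) in red blood cells of E11.5 and up to 25.7 UPM in epithelial cells of E9.5.

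**Figure D4:**
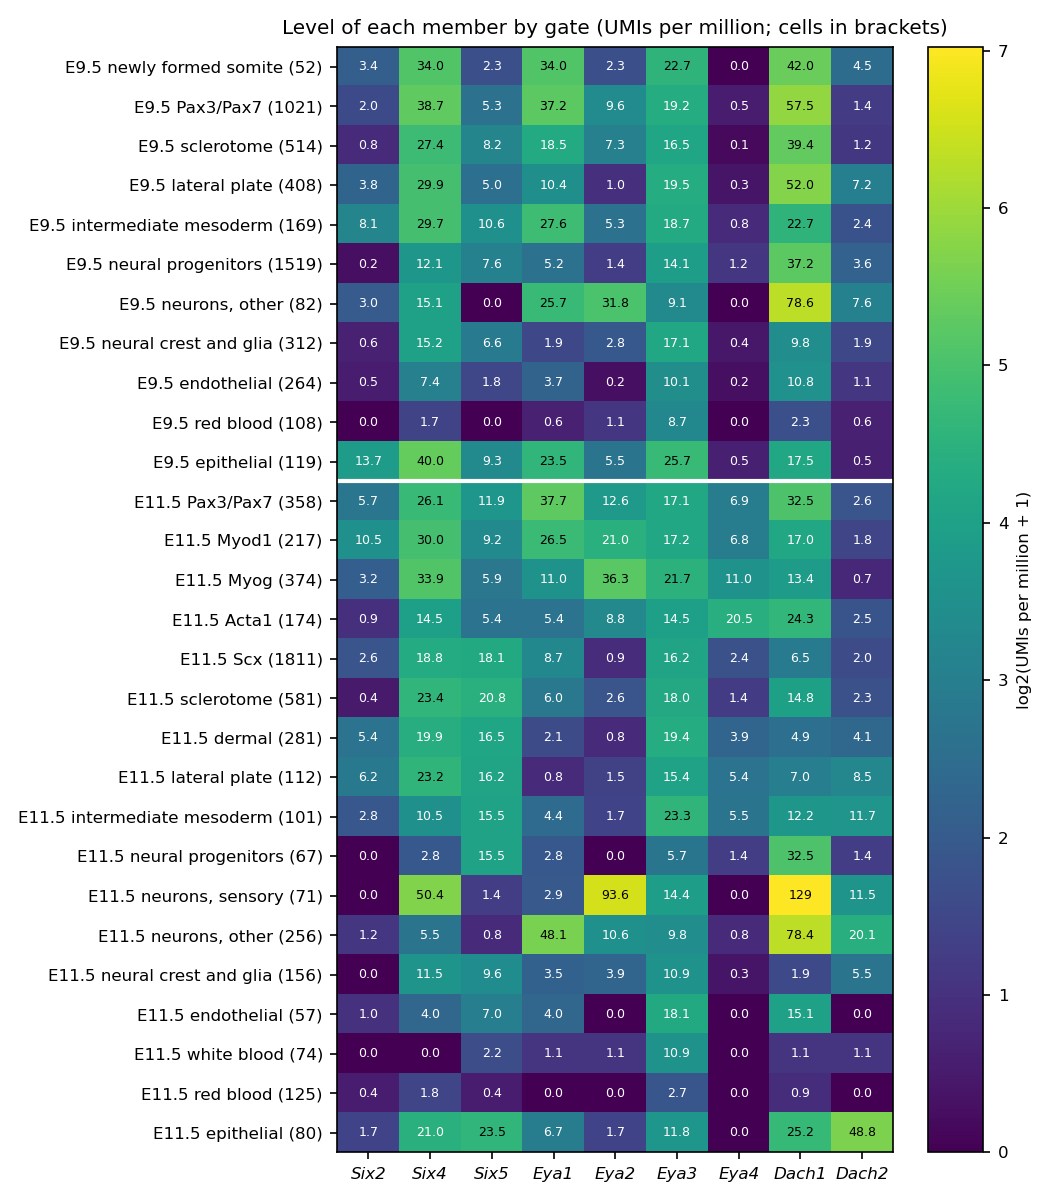
Level of each member (columns) in UMIs per 1000000 UMIs in the gates of at least 50 cells (rows, cell numbers in brackets) at E9.5 (above the white line) and E11.5 (below), coloured by log2(level + 1). Dach1 and Eya2 are brightest in sensory neurons of E11.5 (129 and 93.6), Dach2 in epithelium of E11.5 (48.8) and Eya4 in the Acta1 gate (20.5).

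The change with stage was repeated across gates for some members and not for others. In 10 gates that held at least 50 cells at both stages, Six5 was higher at E11.5 with an interval clear of 0 in 6 and lower in 0, with log2 ratios of 0.55 to 1.94. The highest, in the endothelial gate, rests on 8 and 7 UMIs, under the 20 UMIs asked of a fold. The interval in neural progenitors started at 0.01, with 11 UMIs at E11.5. Eya4 was higher in 4 and lower in 0, but only the Pax3/Pax7 gate of these held 20 UMIs. The sclerotome gate held 1 and 10 Eya4 UMIs at the 2 stages, the lateral plate gate 2 and 7 and the intermediate mesoderm gate 2 and 10. Dach2 was higher in 3 and lower in 0, Six2 higher in 1 and lower in 2, Eya3 lower in 3 and higher in 0, and Eya2 lower in 1 and higher in 0. Dach1 was lower in 5 and higher in 0, and Six4 and Eya1 were each lower in 4 and higher in 0. The ratios of Eya1 ran from -3.75 in the lateral plate gate to 0.91 in the neural crest gate, with 0.02 in the Pax3/Pax7 gate. In the sclerotome gate Eya1 went from 18.5 to 6.01 UPM and Dach1 from 39.4 to 14.8 UPM. Its make-up changed, with the cartilage gene Col9a1 seen in 308 of 514 and 511 of 581 cells. The Scx gate, taken first, held 14 and 1811 cells. With Col9a1 the log2 ratios were -1.12 for Eya1 and -1.35 for Dach1. Without Col9a1 they were -4.26, from 74 and 1 UMIs, and -1.93. The lateral plate gate changed in make-up, with Foxf1 at 88.2 and 1.54 UPM, and there Eya1 went from 65 UMIs to 1 and Dach1 from 52.0 to 6.95 UPM. The intermediate mesoderm and epithelial gates changed in make-up too. In the epithelial gate Eya1 went from 43 UMIs to 8, but from 5 to 7 between Trp63-holding cells alone (0.34, -1.53 to 2.34). All these comparisons share the same 2 libraries, so agreement among gates is not independent support.

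**Figure D5:**
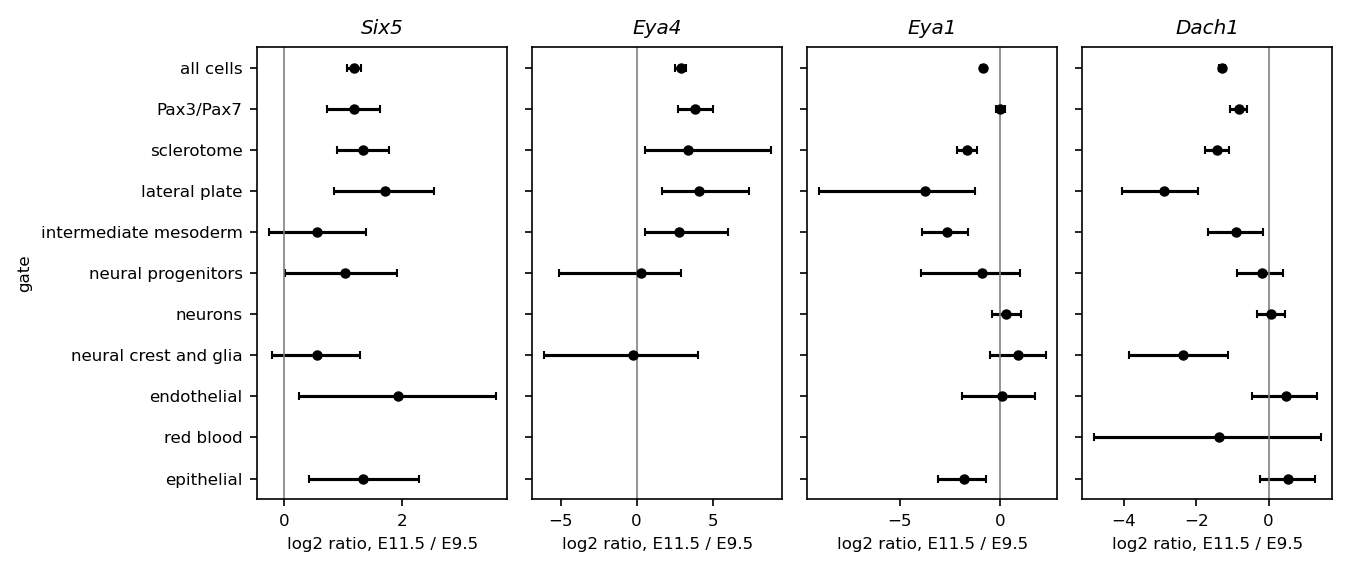
Log2 ratio of E11.5 over E9.5 for Six5, Eya4, Eya1 and Dach1 over all cells and in each gate compared, with bars for 95% intervals of the ratio and no point where a stage had 0 UMIs. Six5 lies right of 0 in all gates drawn, and Eya1 lies at 0.02 in the Pax3/Pax7 gate and left of 0 in sclerotome, lateral plate and epithelium. The sclerotome, lateral plate and epithelial gates differed in make-up between the stages.

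Of 12 partner genes set as a list, Skil, a relative of the Dach genes, Tle2 and Aes (the file's name for Tle5) were past 2-fold higher at E11.5, both over all cells and in the Pax3/Pax7 gate, and 0 were lower, where 30.0% and 21.0% of all genes passed 2-fold either way. Most of those genes were higher too, with 4073 higher and 951 lower over all cells, and 1806 and 729 in the gate. Between the Myog and the Pax3/Pax7 gates 0 of the 12 passed 2-fold, against 14.3% of all genes. Between the Acta1 and the Pax3/Pax7 gates Skil was higher, from 47.3 to 113 UPM (log2 ratio 1.26, 1.03 to 1.48), and Sin3a, Hdac3, Tle2 and Tle3 were lower, against 35.1% of all genes past 2-fold. Skil was at 73.7 UPM in the Myog gate, so Skil and Dach1 were both higher in level in the Acta1 gate than there. Against the Pax3/Pax7 gate they went opposite ways, with Dach1 at a log2 ratio of -0.42 (-0.82 to -0.03).

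Of 11 genes known as targets of sine oculis proteins, 9 had at least 20 UMIs between the Myog and the Pax3/Pax7 gates. There, 4 were past 2-fold higher (Myog, Myod1, Mef2c and Eno3) and 3 lower (Pax3, Myf5 and Met), where 14.3% of all genes were past 2-fold, but Myog, Myod1 and Pax3 set the gates, so their part of the count is fixed by the gating. Eno3, the muscle enolase gene whose enhancer holds a MEF3 site, went from 51.8 UPM in the Pax3/Pax7 gate to 128 in the Myog and 899 in the Acta1 gate. Mef2c, a partner of the myogenic factors, went from 17.3 to 182 and 1651 UPM. Met went from 15.8 to 7.20 and 0.631 UPM, beside Eya1 at 37.7, 11.0 and 5.37 UPM. The median log2 ratio of Acta1 over Pax3/Pax7 was -0.51 over the members and -0.32 over all genes.

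The genes whose levels most resembled those of a member were found by Pearson correlation of log2(UPM + 1) over 27 gates of at least 50 cells, among 13110 genes with at least 200 UMIs. The gates share libraries and differ in depth, so the values are a description. Among the genes most like Eya2 were Plcxd3 (r = 0.82) and St6galnac5 (0.81). Eya4 was most like Igdcc4 (0.90), Ogn (0.90), which encodes a proteoglycan of connective tissue, and Lama2 (0.89), which encodes the laminin chain of the muscle basement membrane. Eya1 was most like Phlda1 (0.78), Whrn (0.77) and Pvrl1 (0.77), and Eya3 like Zfp770 (0.87), Tbca (0.86) and Bbx (0.86).

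Of the sine oculis genes, Six4 was most like Armcx5 (0.88), Ephb3 (0.87), an ephrin receptor gene, and Trmt10b (0.87). Six5 was most like Cyp39a1 (0.88), Ccbl2 (0.87) and Col4a5 (0.87), a basement membrane collagen gene, and Six2 like Spin2c (0.72), Gm26648 (0.71) and the imprinted gene Peg3 (0.71). Dach1 was most like Plxna2 (0.83), a semaphorin receptor gene, 3010003L21Rik (0.82) and Acvr2b (0.82), an activin receptor gene. Dach2 was most like Tmem42 (0.80), RP23-324J22.6 (0.78) and Tenm2 (0.76).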

How the data were processed

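The authors aligned the reads of both libraries to mm10 with Cell Ranger 3.0.1 and deposited raw UMI counts per gene and barcode, without normalization, for the barcodes called as cells. Counts were read with scanpy 1.11.5, numpy 2.4.6, scipy 1.17.1 and pandas 2.3.3 in Python 3.11.15, and plotted with matplotlib 3.10.9. Cells were filtered as the authors filtered theirs, but clusters were not used: exclusive gates by UMI thresholds on the muscle genes came first, then tissue gates for cells with at least 3 of 5 listed markers and at most 1 of every other list, then Scx (2 UMIs), sclerotome (3 of 5 markers), dermal and lateral plate (2 of 5 markers) gates. Counts were summed per gate. Exact Poisson, conditional binomial and Clopper-Pearson intervals were computed. Ratio intervals were run on simulated Poisson counts for E11.5 Acta1 over Pax3/Pax7, where 96.0% over 11243 genes held the true value. The intervals assume that same Poisson model, so this checks the computation only. UMIs that cluster in few cells were not simulated, so coverage in the real counts is not known from it. A fold needed 20 UMIs in both classes together to be counted past 2-fold. For a count of 0 the limit is 3 counts. Doublets were scored with Scrublet at an expected rate of 8%, which called 6.75% and 4.00% of barcodes, and were left in except in an alternative.

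Named genes are the members, the fixed partner and target lists, markers of the gates, and the 3 genes most like each member, of which 1 is not reported here. The members, gates and lists were chosen with earlier results of these data known, and the splits by Lbx1, Met, Prrx1, Trp63 and Gdnf, the neighbour Dmpk and the genes that describe those splits were added after seeing the values. The alternatives were a set without Scrublet calls, a minimum of 1000 genes, thinning to 5000 UMIs, the mean over cells, no filter, muscle thresholds 1 UMI higher, no exclusion genes, 1 more tissue marker, and detection from 2 UMIs. The Pax3/Pax7 gate without Prrx1-holding cells and the removal of shared barcodes were added after seeing the data. Gene positions and overlaps are from GENCODE M21, promoter windows from RefSeq. Small noncoding genes and pseudogenes overlap Eya1, Eya2, Eya4, Dach1 and Dach2 in the annotation. Imaging, culture and mouse line experiments were not analysed here.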

Additional observations from a re-analysis of the deposited data

Results flagged for a closer look

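Members whose level in a gate lay above that of the other cells of the library at one stage and below it at the other are listed here as log2 ratios. The difference between the stages was not tested, since each stage is 1 library. Eya1 in the intermediate mesoderm gate was at 0.67 at E9.5 and -1.17 at E11.5, where the later gate almost lacked Pax2. Eya2 in the sclerotome gate was at 0.69 and -1.38, where cells with Col9a1 were 308 of 514 and 511 of 581. Dach1 in the lateral plate gate was at 0.50 and -1.16, where Foxf1 went from 88.2 to 1.54 UPM. In the epithelial gate Dach1 was at -1.11 and 0.72, and Dach2 at -2.72 and 3.34, where the share of cells with Trp63 differed between the stages.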

How the results depend on the processing

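The E11.5 over E9.5 ratios kept their direction wherever their interval excluded 0, under each alternative tried, and moved outside that interval in 4 of 54 recomputed values over all cells and 10 of 81 in the Pax3/Pax7 gate. All values here are log2 ratios unless given in UPM, and the cause of a shift was not tested, except that thinning leaves fewer UMIs. Over all cells, thinning gave -0.94 for Eya1, 0.31 for Eya2 and 2.49 for Eya4, and the mean over cells gave 0.25 for Eya2. In the Pax3/Pax7 gate, thinning gave -0.22 for Eya1, 2.01 for Eya4, -1.13 for Dach1 and 2.52 for Dach2. Leaving out the exclusion genes gave -0.06 for Six4, 1.53 for Eya2 and -0.52 for Dach1, and leaving out Prrx1-holding cells gave 0.43 for Eya1, 0.94 for Eya2 and -0.46 for Dach1.

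For Myog over Pax3/Pax7, Eya1 was -2.18 with thresholds 1 UMI higher, -1.38 without the exclusion genes and -2.20 without Prrx1-holding cells, Eya2 was 0.93 and 1.05 in the last 2 settings, and Eya4 was 1.50 when thinned and 0.03 without Prrx1-holding cells. For Acta1 over Pax3/Pax7, thinning gave -2.53 for Six5, 0.52 for Eya3, 2.79 for Eya4 and -1.73 for Dach2, and Eya4 was 0.93 without Prrx1-holding cells. For Myod1 over Pax3/Pax7, thinning reversed Six2 to -0.88 and gave -1.78 for Six5 and 0.90 for Eya4. Without the exclusion genes Eya1 was -0.10 and Eya2 0.06, and without Prrx1-holding cells they were -0.93 and 0.26. The number of members past 2-fold was 3 in every setting over all cells, 3 to 5 for the Pax3/Pax7 gate between stages, 4 to 6 for Myog over Pax3/Pax7, 3 to 5 for Acta1 over Pax3/Pax7 and 0 to 3 for Myod1 over Pax3/Pax7.

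Of 90 tissue levels recomputed, 6 left their interval. Six2 in the E11.5 lateral plate gate was 1.83 UPM thinned and 0 with 1 more marker, Eya4 in the E11.5 intermediate mesoderm gate 11.9 and 18.0 UPM, Dach1 in E9.5 neurons 119 UPM and Dach2 in E11.5 epithelium 66.1 UPM with 1 more marker. Counting cells from 2 UMIs lowered 17 of 18 shares below their interval. No paired analysis was possible because each stage is 1 library. At these depths a member with under about 20 UMIs in a gate can have an interval too wide to rank it among gates of similar level.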
